A study of Homo sapiens with 6 samples.

Results

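The 10 genes described here encode cytokines of the gp130 family (IL6, IL11 and LIF), receptor chains that pair around gp130 (IL6ST, IL6R, LIFR and OSMR), the IL-23 subunit IL23A, the IL-20 family cytokine IL24, and the feedback inhibitor SOCS3. They were chosen by symbol from the 25349 genes of the count table, and all 10 were found. SCC-9, an established human cell line, derives from a tongue squamous carcinoma. Its cells were transfected on day 0 and again on day 2 at 10 nM, either with an siRNA whose target is exon 7 of MKI67 (siE7), the gene that encodes the proliferation marker Ki67, or with a nonspecific siRNA (siNC), and 3 libraries were sequenced per group. Both groups grew in 10% serum and 400 ng/mL hydrocortisone, a glucocorticoid. All libraries come from 1 cell line, and the sources used here do not say which of the exon 7 siRNAs was used. They do not say either whether the replicates were separate cultures, so p-values measure the spread between these libraries, which may be technical.

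gp130, the protein of IL6ST, is the signal-transducing chain shared by the receptors of this cytokine family. IL-6 and IL-11 bind a ligand-specific chain (IL6R or IL11RA) and then gp130, while LIF uses LIFR with gp130 and oncostatin M uses OSMR or LIFR with gp130. The assembled receptors activate JAK kinases and STAT3, and SOCS3 is induced by STAT3 and in turn blocks gp130 signaling. IL23A encodes the p19 subunit of IL-23, which is active only when joined to the p40 subunit of IL12B. IL-24 signals to epithelial cells through IL20RB paired with IL20RA or IL22RA1. Squamous epithelia and their carcinomas are known sources and targets of several of these cytokines.

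The libraries held 25608192 to 29550264 counts on genes. Levels are given in CPM, gene counts scaled to the library size after TMM adjustment. In the comparison of siE7 with siNC by edgeR's quasi-likelihood test, a gene was called when its Benjamini-Hochberg adjusted p was under 0.05. A called gene counted as a differentially expressed gene (DEG) if its log2 fold change (log2FC, siE7 minus siNC) was above 1 or below -1. Changes are given as log2FC ± standard error (SE). MKI67 itself had 1030 to 1080 CPM in siNC and 108 to 124 CPM in siE7, a log2FC of -3.21 ± 0.114 (SE; adjusted p = 6.7e-08 by this test). By their mean over all libraries, all 8 squamous epithelial markers were above 1 CPM, as were COL1A1 and COL1A2 among 7 fibroblast genes and CD14 among 8 leukocyte genes, while 0 of 4 endothelial genes were. HLA-DRA, another gene of the leukocyte list, measured 0.353 CPM in siNC and 1.2 CPM in siE7, and CD14 2.95 and 2.05 CPM. Summed leukocyte markers were at 2.59 to 3.96 CPM in siNC and 2.68 to 4.25 CPM in siE7. The siE7 replicate 1 library stood apart from the other siE7 libraries, with a chi-square of 61.1 and 72.7 per degree of freedom against them, compared with 5.54 to 6.22 for the other pairs within a group. Some calls and counts that changed when it was left out are also given without it. These are bulk samples, in which fewer expressing cells and less RNA per cell cannot be told apart.

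All 10 genes passed the filter on low counts. With siE7, 6 of them were lower (LIF, IL11, IL6ST, OSMR, IL23A and IL24), 1 was higher (IL6R), and 3 were not called (IL6, LIFR and SOCS3). Of all 14661 tested genes, 16.0% were called lower and 18.0% higher. As DEGs, 4 of the 10 were lower and 0 higher, against 4.84% lower and 7.38% higher over all tested genes. The median log2FC of the 10 genes was -1.01, beside 0.08 over all tested genes. Because the 10 genes were chosen with results of these libraries known, these shares describe them and were not tested. Without siE7 replicate 1 the counts were 6 lower and 1 higher, when 58.4% of all genes were called against 34.0% with all libraries. The siE7 libraries all lay below the siNC libraries for 6 of the 10 genes (22.7% of all tested genes) and all above for 1 (24.9%), so the groups did not overlap for 7 of the 10, beside 47.6% of all tested genes.

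**Figure D1:**
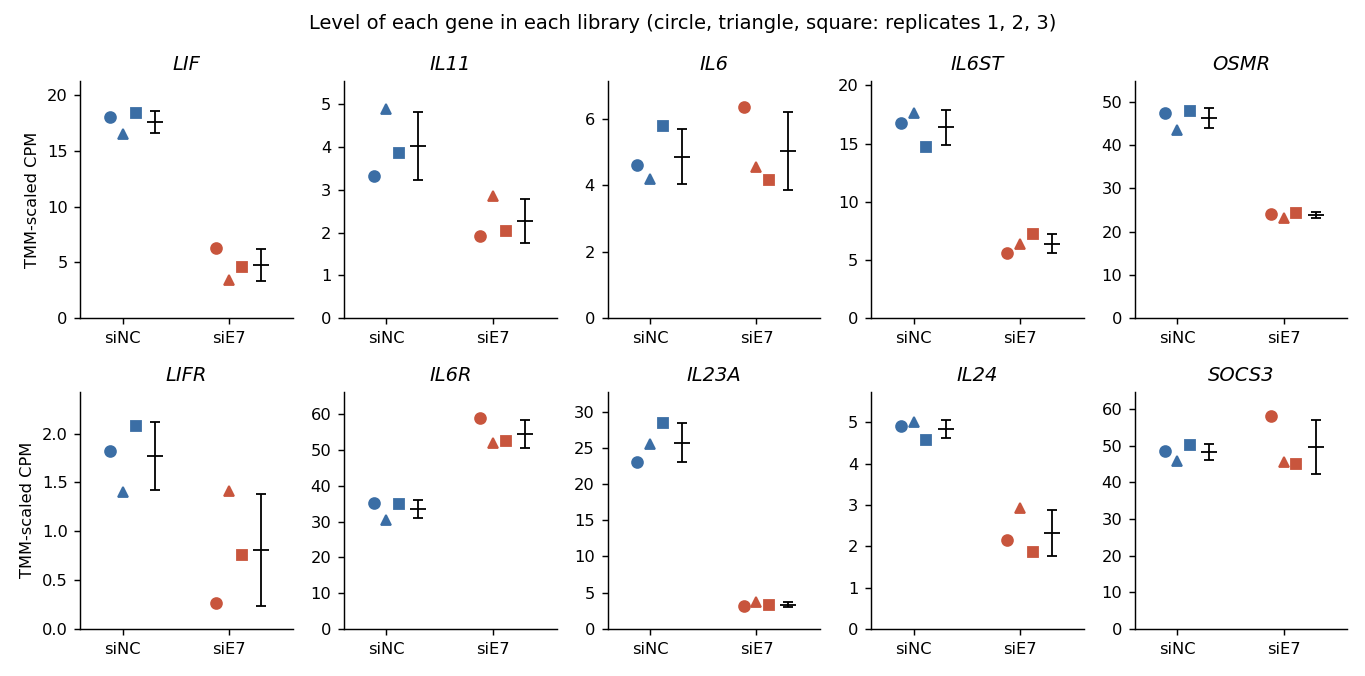
Level of each of the 10 genes in CPM (y axes from 0, a scale of its own per gene) in the 3 siNC (blue) and 3 siE7 (red) libraries, with the mean and SD in black. The siE7 libraries lie below every siNC library for LIF, IL11, IL6ST, OSMR, IL23A and IL24, above them for IL6R, and overlap with them for IL6, LIFR and SOCS3.

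Promoter sequences of 9 of the 10 genes were found in the RefSeq table (GRCh38.p14), as windows from 250 bases before to 50 bases after an annotated start. Each was searched on both strands for the AP-1 motif TGANTCA and the STAT motif TTCNNNGAA, which read alike on both strands in their fixed bases. The AP-1 motif was present for 4 genes, IL23A, IL11, OSMR and IL6R, and in 7.71% of all 35116 promoters of the table. Those 4 windows are printed here because 3 belong to genes that fell with siE7 and 1 to the gene that rose, with the motif in capitals and each window read 5′ to 3′ along its gene. They lie at chr12:56338634-56338933 (plus strand, IL23A), chr19:55370414-55370713 (minus strand, IL11), chr5:38845762-38846061 (plus strand, OSMR) and chr1:154405093-154405392 (plus strand, IL6R).
IL23A: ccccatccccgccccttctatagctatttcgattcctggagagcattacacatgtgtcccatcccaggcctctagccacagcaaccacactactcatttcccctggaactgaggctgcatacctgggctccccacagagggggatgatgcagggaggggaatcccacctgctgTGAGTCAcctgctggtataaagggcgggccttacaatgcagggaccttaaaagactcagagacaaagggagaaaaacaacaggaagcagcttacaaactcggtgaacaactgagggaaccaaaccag
IL11: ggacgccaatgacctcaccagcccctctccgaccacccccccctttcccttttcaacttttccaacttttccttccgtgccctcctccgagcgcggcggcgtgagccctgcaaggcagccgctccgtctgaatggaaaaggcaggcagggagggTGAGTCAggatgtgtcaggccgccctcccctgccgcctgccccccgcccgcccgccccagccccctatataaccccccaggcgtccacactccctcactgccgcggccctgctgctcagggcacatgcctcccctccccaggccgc
OSMR: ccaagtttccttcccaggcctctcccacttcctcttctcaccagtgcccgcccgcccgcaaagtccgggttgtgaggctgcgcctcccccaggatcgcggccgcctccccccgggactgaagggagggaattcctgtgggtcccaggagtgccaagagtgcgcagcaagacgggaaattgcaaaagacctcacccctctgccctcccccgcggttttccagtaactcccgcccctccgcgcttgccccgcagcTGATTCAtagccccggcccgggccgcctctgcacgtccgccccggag
IL6R: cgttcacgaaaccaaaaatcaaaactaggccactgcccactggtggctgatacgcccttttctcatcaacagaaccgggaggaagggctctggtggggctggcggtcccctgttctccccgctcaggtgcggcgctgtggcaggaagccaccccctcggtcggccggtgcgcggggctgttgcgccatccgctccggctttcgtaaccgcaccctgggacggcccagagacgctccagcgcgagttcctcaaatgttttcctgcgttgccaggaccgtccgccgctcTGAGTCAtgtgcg
The motif began 77 bases before the start in IL23A and 96 bases before it in IL11, both as TGAGTCA, and lay after the start in OSMR (TGATTCA) and IL6R (TGAGTCA). The STAT motif was found in windows of 1 of the 9 genes, LIFR, beside 7.66% of all promoters. The 9 genes had 12 windows, with more than 1 for some genes. Counts of genes therefore do not compare directly with shares of promoters. These matches describe the letters only, and genes with the motif changed in both directions.

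Among the gp130 ligands, LIF and IL11 fell with siE7 and IL6 was not called. LIF, leukemia inhibitory factor, is encoded on chromosome 22 from 30240453 to 30246759 of GRCh38. It measured 18.0, 16.5 and 18.4 CPM in the siNC libraries and 6.30, 3.47 and 4.57 CPM in the siE7 libraries. The highest siE7 library, replicate 1, stayed far below the lowest siNC library. LIF had a log2FC of -1.88 ± 0.209 (SE; adjusted p = 7.5e-05 by edgeR's quasi-likelihood test), and 27.2% of the siNC mean remained. Without siE7 replicate 1 the log2FC was -2.18. The noncoding LIF-AS2 overlaps LIF on the other strand and held at most 23 counts, against 96 to 485 counts on LIF.

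IL11, a cytokine that signals through IL11RA and gp130, lies on chromosome 19 from 55364382 to 55370463 and overlaps no annotated gene. Its level was 3.32, 4.88 and 3.86 CPM in siNC and 1.92, 2.86 and 2.03 CPM in siE7. The groups did not overlap, although the highest siE7 and the lowest siNC library were close. For IL11 the log2FC was -0.83 ± 0.248 (SE; adjusted p = 0.024 by the same test, with 0.0041 to 0.12 under the alternatives). The call was lost without siNC replicate 2 (-0.67), without siNC replicate 3 (-0.86), without siE7 replicate 3 (-0.75) and when libraries were scaled by their totals alone (-0.65).

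IL6, the founding cytokine of the family, lies on chromosome 7 from 22725884 to 22732002. It measured 4.61, 4.20 and 5.79 CPM in siNC and 6.37, 4.56 and 4.15 CPM in siE7, so the groups overlapped and both the highest and the lowest library were siE7. The IL6 log2FC was 0.05 ± 0.224 (SE; adjusted p = 0.89 by the same test). Without siE7 replicate 1, the library with the highest level, it was -0.22 and not called (adjusted p = 0.32, with 0.32 to 1 under the alternatives).

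In the wider list of 10 gp130 cytokines, 6 genes were tested and 3 were called, all lower, beside 16.0% called lower of all tested genes. The third, beside LIF and IL11, was CLCF1, a ligand of the CNTF receptor, with 8.74, 8.96 and 8.70 CPM in siNC and 5.93, 4.67 and 4.80 CPM in siE7 (log2FC -0.78, adjusted p = 0.0056 by the same test). CTF1, which encodes cardiotrophin-1, had the opposite sign, at 1.44 ± 0.0739 CPM in siNC and 2.38 ± 0.441 CPM in siE7 (SD, n = 3), and missed the threshold (log2FC 0.72, adjusted p = 0.0505 by edgeR's test, with 0.02 to 0.15 under the alternatives). OSM, the gene of oncostatin M, had 0 counts in 5 libraries and 5 counts in siE7 replicate 1, and was not tested.

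The receptor chains moved in opposite directions, with IL6ST and OSMR lower and IL6R higher. IL6ST, on chromosome 5 from 55935095 to 55995022, measured 16.8, 17.6 and 14.7 CPM in siNC and 5.60, 6.41 and 7.22 CPM in siE7. Every siE7 library held less than every siNC library, and the siE7 mean was 39.1% of the siNC mean. This gave IL6ST a log2FC of -1.35 ± 0.166 (SE; adjusted p = 1.4e-04 by the same test), and IL6ST was a DEG under all 13 alternatives. The 3 annotated genes that overlap it on the other strand had at most 1 count or were not analysed here.

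OSMR, the specific chain of the oncostatin M receptor, lies on the same chromosome from 38845858 to 38945596. Its level was 47.4, 43.5 and 47.8 CPM in siNC and 24.0, 23.1 and 24.4 CPM in siE7. Within each group the libraries were close to each other, and the siE7 mean was 51.5% of the siNC mean. Its log2FC was -0.96 ± 0.117 (SE; adjusted p = 1.3e-04 by the same test), just inside the fold limit of a DEG. It passed that limit with DESeq2 (-1.01), RLE scaling (-1.0), without siNC replicate 2 (-1.01) and without siE7 replicate 1 (-1.02). It overlaps RICTOR on the other strand, which measured 4.21 CPM in siNC and 4.46 CPM in siE7.

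LIFR, the chain that binds LIF, spans 38474668 to 38608354 of chromosome 5 and had the lowest counts of the 10 genes. The siNC libraries held 45, 35 and 55 counts and the siE7 libraries 8, 39 and 23, so siE7 replicate 2 lay above siNC replicate 2 and the groups overlapped. In CPM this was 1.77 ± 0.344 in siNC and 0.811 ± 0.573 in siE7 (SD, n = 3). A log2FC of -1.13 ± 0.463 (SE) was not called (adjusted p = 0.080 by the same test, with 0.011 to 0.21 under the alternatives). Without siE7 replicate 1, the library with 8 counts, the LIFR log2FC was -0.78 and not called (adjusted p = 0.054 by the same test). Without siE7 replicate 2 it was -1.78 and called (adjusted p = 0.016), and it was also called without the filter on low counts (-1.15).

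IL6R, the IL-6 binding chain, lies on chromosome 1 from 154405193 to 154469450. It measured 35.1, 30.6 and 35.0 CPM in siNC and 58.9, 51.9 and 52.6 CPM in siE7. All siE7 libraries exceeded all siNC libraries, and the siE7 mean was 1.62 times the siNC mean. IL6R thus had a log2FC of 0.70 ± 0.121 (SE; adjusted p = 0.0012 by the same test), below the fold limit of a DEG, and lay between 0.58 and 0.86 over the alternatives. IL6R-AS1, on the other strand, had at most 5 counts.

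In each library the level of IL6R per transcript length was set against that of IL6ST. The ratio was 3.26, 2.72 and 3.74 in siNC and 16.5, 12.7 and 11.4 in siE7, and the groups lay far apart. The same ratio for OSMR was 4.6, 4.04 and 5.31 in siNC and 7.01, 5.88 and 5.51 in siE7, with a narrow gap between the groups. These ratios are of transcript counts, and receptor protein was not measured here.

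Among the 7 genes of the gp130 receptor list, 6 were tested, of which 3 were lower and 2 higher. Of all tested genes, 16.0% were called lower and 18.0% higher. IL27RA, the specific chain of the IL-27 receptor, measured 19.6, 15.4 and 19.3 CPM in siNC and 7.55, 8.11 and 8.07 CPM in siE7, and was a DEG (log2FC -1.19 ± 0.158, SE; adjusted p = 2.3e-04 by edgeR's test). IL11RA, the specific chain for IL-11, was higher at 3.59 ± 0.650 CPM in siNC and 5.36 ± 0.617 CPM in siE7 (SD, n = 3). Its log2FC of 0.58 stood at the threshold (adjusted p = 0.0499 by the same test, with 0.019 to 0.21 under the alternatives). The call was lost with DESeq2 (0.53), RLE scaling (0.54), no filter on low counts (0.57) and a replicate block (0.59). It was also lost without any 1 of the 6 libraries, when the value lay between 0.42 and 0.71.

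**Figure D2:**
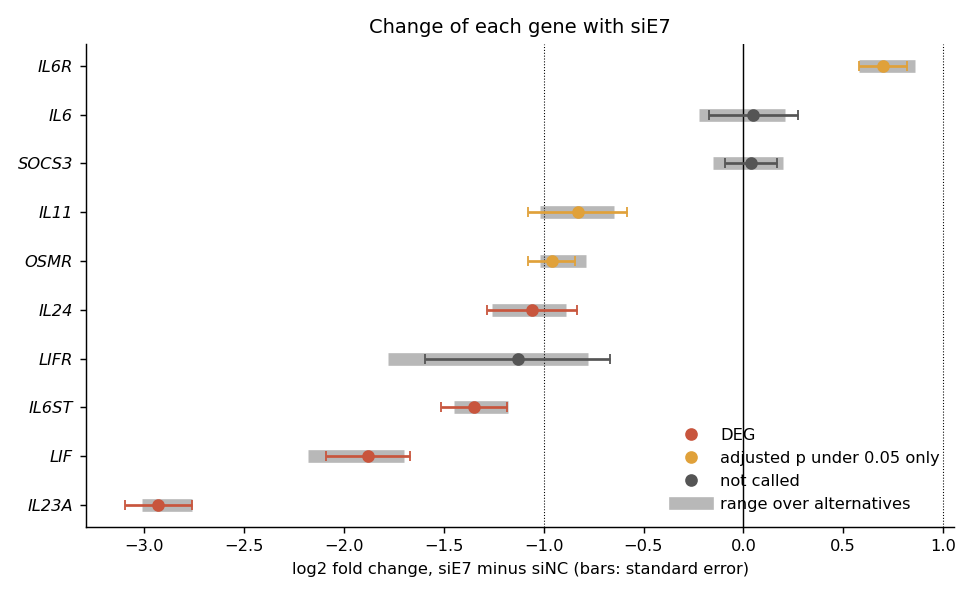
Log2FC of each gene, siE7 minus siNC (x axis), with its standard error as a bar and the range over the alternative settings in grey; dotted lines mark the DEG limit of 1. IL23A, LIF, IL6ST and IL24 were DEGs, OSMR, IL11 and IL6R were called only, and the ranges of IL6 and SOCS3 cross 0.

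IL23A had the largest change of the 10 genes. It lies on chromosome 12 from 56334174 to 56340410 and overlaps no annotated gene. The siNC libraries measured 23.1, 25.6 and 28.5 CPM and the siE7 libraries 3.10, 3.73 and 3.27 CPM. The lowest siNC library was far above the highest siE7 library, and the siE7 mean was 13.1% of the siNC mean. IL23A changed by a log2FC of -2.93 ± 0.167 (SE; adjusted p = 8.0e-07 by the same test), and -2.94 without siE7 replicate 1. The partner subunit gene IL12B and the receptor gene IL23R were not analysed here. The shared receptor chain IL12RB1 held 0 to 8 counts per library and was not tested. IL12A, the subunit specific to IL-12, had mean levels of 0.341 CPM in siNC and 0.352 CPM in siE7 and was not tested.

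IL24, on chromosome 1 from 206897443 to 206904139, was the only cytokine gene of the IL-20 family list that was tested. It measured 4.90, 5.00 and 4.58 CPM in siNC and 2.16, 2.93 and 1.86 CPM in siE7. The groups did not overlap, and the siE7 libraries were more spread than the siNC libraries. IL24 had a log2FC of -1.06 ± 0.226 (SE; adjusted p = 0.0042 by the same test). Without siE7 replicate 3 (-0.92) and with library totals only (-0.89) it was called but no DEG. FCMR overlaps IL24 on the other strand and was also lower, at 2.75 CPM in siNC and 1.52 CPM in siE7, and whether strand was used in counting is not given in the sources used here.

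Of the IL-24 receptor chains, IL20RB rose, and IL20RA and IL22RA1 were not called with all libraries. IL20RB measured 84.9, 80.0 and 80.8 CPM in siNC and 128, 108 and 110 CPM in siE7, without overlap (log2FC 0.50 ± 0.113, SE; adjusted p = 0.0059 by edgeR's test). IL20RA was at 1.63 ± 0.541 CPM in siNC and 0.854 ± 0.362 CPM in siE7 (SD, n = 3), with overlapping libraries and no call (log2FC -0.93, adjusted p = 0.085 by the same test, 0.038 to 0.27 under the alternatives). IL22RA1 measured 8.99, 8.08 and 10.4 CPM in siNC and 11.6, 8.43 and 6.34 CPM in siE7, also with overlap (log2FC -0.06 ± 0.221, SE). In the IL-20 family list of 10 genes, 4 were tested, with 1 lower and 1 higher. The number of lower genes was 3 without siE7 replicate 1, when IL20RA and IL22RA1 were called too. There IL20RA had a log2FC of -0.88 (adjusted p = 0.048 by edgeR's test). The number was 2 without siE7 replicate 2, when IL20RA was called too (-1.32). Of all tested genes, 34.0% were called with all libraries, 58.4% without siE7 replicate 1 and 25.2% without siE7 replicate 2.

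SOCS3, on chromosome 17 from 78356778 to 78360077, was not called. It measured 48.5, 45.9 and 50.2 CPM in siNC and 58.0, 45.4 and 45.1 CPM in siE7. Only siE7 replicate 1 lay above the siNC libraries, and the other siE7 libraries lay just below them. The SOCS3 log2FC was 0.04 ± 0.131 (SE; adjusted p = 0.84 by the same test), and -0.15 without siE7 replicate 1 (adjusted p = 0.071, with 0.071 to 1 under the alternatives). The sign of SOCS3 also changed with DESeq2 and with RLE scaling.

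All 16 genes of the list of negative regulators were tested, with 3 lower and 1 higher. Without siE7 replicate 1 they were 5 lower and 3 higher, and without any 1 of the other 5 libraries 3 lower and 0 higher. Of all tested genes, 34.0% were called with all libraries and 58.4% without siE7 replicate 1. Without any 1 of the other 5 libraries, 20.9% to 26.8% of all tested genes were called. SOCS1, an inhibitor of JAK kinases, measured 2.27, 2.36 and 2.46 CPM in siNC and 0.640, 0.760 and 0.850 CPM in siE7 (log2FC -1.65 ± 0.277, SE; adjusted p = 0.00102 by edgeR's test). CISH, an inhibitor induced by STAT5, was at 9.29 ± 1.57 CPM in siNC and 4.34 ± 0.852 CPM in siE7 (SD, n = 3), with a log2FC of -1.10, and was called but no DEG without siNC replicate 3 (-0.98), without siE7 replicate 3 (-0.95) and with library totals only (-0.94). PTPN1, a phosphatase that acts on JAK2 and TYK2, was the other lower gene (log2FC -0.67). The higher gene was SOCS7 (log2FC 0.33), whose call was lost in 9 of its 13 alternatives.

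Per kilobase of the canonical transcript, IL23A had the highest mean level of the 10 genes in siNC, at 24.8 CPM per kilobase. It was followed by SOCS3 (17.6), OSMR (8.37), IL6R (5.83), LIF (4.55), IL6 (4.32), IL24 (2.44), IL6ST (1.81), IL11 (1.69) and LIFR (0.168), all in CPM per kilobase. The siNC libraries of LIF and IL6 overlapped, as did those of IL6ST and IL11, so these neighbours were not separated. In siE7 the level of SOCS3 was highest at 18.1 CPM per kilobase, followed by IL6R (9.45), IL6 (4.46), OSMR (4.31) and IL23A (3.25). There the libraries of IL6 and OSMR overlapped, as did those of LIF and IL24 and those of IL24 and IL11. LIFR was lowest in both groups. Of IL6, LIF and IL11, IL6 had the highest level in siE7, above LIF at 1.24 CPM per kilobase. In siNC the libraries of IL6 and LIF overlapped, and IL11 lay below both.

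Of 11 JAK and STAT genes, 10 were tested and 0 were called by edgeR, which called 34.0% of all tested genes. Of the 10, 3 had an unadjusted p under 0.05, and DESeq2 called 2 genes of the list, both lower. JAK1 measured 42.1 ± 2.62 CPM in siNC and 34.5 ± 3.64 CPM in siE7 (SD, n = 3; log2FC -0.29), and STAT3 168 ± 3.92 and 192 ± 22.6 CPM (SD, n = 3; log2FC 0.19). JAK2 and TYK2 had log2FCs of 0.05 and 0.03, with signs that turned under several alternatives. Without siE7 replicate 1, when 58.4% of all genes were called, 6 genes of the list were called, all lower, JAK1 and JAK3 among them. With library totals only, STAT3 and STAT5B were called higher. Of the 4 genes for receptor shedding, RHBDF2, a partner of the sheddase ADAM17, was lower (log2FC -0.88, and -1.13 without siE7 replicate 1, when 2 of the 4 were lower) and ADAM17 higher (0.44), and the call of ADAM17 was lost without any 1 of the siNC libraries, without siE7 replicate 2 and without siE7 replicate 3, with values of 0.36 to 0.46.

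Genes known as STAT3 targets went both ways. Of 27 in the list, 20 were tested, 4 were higher and 6 lower, and their median log2FC was -0.22 beside 0.08 over all tested genes. Without siE7 replicate 1, 4 were higher and 10 lower. Of all tested genes, 18.0% were called higher and 16.0% lower, and 58.4% were called in either direction without that library. CCND1, the cyclin D1 gene, measured 486, 446 and 468 CPM in siNC and 161, 168 and 174 CPM in siE7 (log2FC -1.48). CEBPD, a transcription factor of the acute phase response, measured 22.8, 21.5 and 21.5 CPM in siNC and 55.3, 53.6 and 55.9 CPM in siE7 (log2FC 1.32, adjusted p = 1.3e-05 by edgeR's test). NNMT, nicotinamide N-methyltransferase, rose from 59.3 ± 3.20 to 131 ± 5.14 CPM (SD, n = 3). Another list holds 10 keratinocyte genes known to respond to IL-20 family cytokines or oncostatin M. Of these, 9 were tested, with 5 lower and 2 higher, beside 16.0% and 18.0% of all tested genes. CXCL1, a neutrophil chemokine, fell from 45.1 ± 3.19 to 16.3 ± 1.90 CPM (SD, n = 3; log2FC -1.46), and S100A8, a calcium-binding alarmin, from 18.8 ± 2.55 to 9.24 ± 1.26 CPM (SD, n = 3; log2FC -1.02). SERPINB3, a protease inhibitor, rose from 0.986 ± 0.0821 to 3.11 ± 0.680 CPM (SD, n = 3), and its count is uncertain because SERPINB4 is a near-identical neighbour that was also called higher. Over the 100 genes of all lists, 76 were tested and 34 called, 23 lower and 11 higher, and 51 were called without siE7 replicate 1. The shares called over all tested genes were 34.0% with all libraries and 58.4% without siE7 replicate 1. The part of the receptors in any of these changes was not tested.

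**Figure D3:**
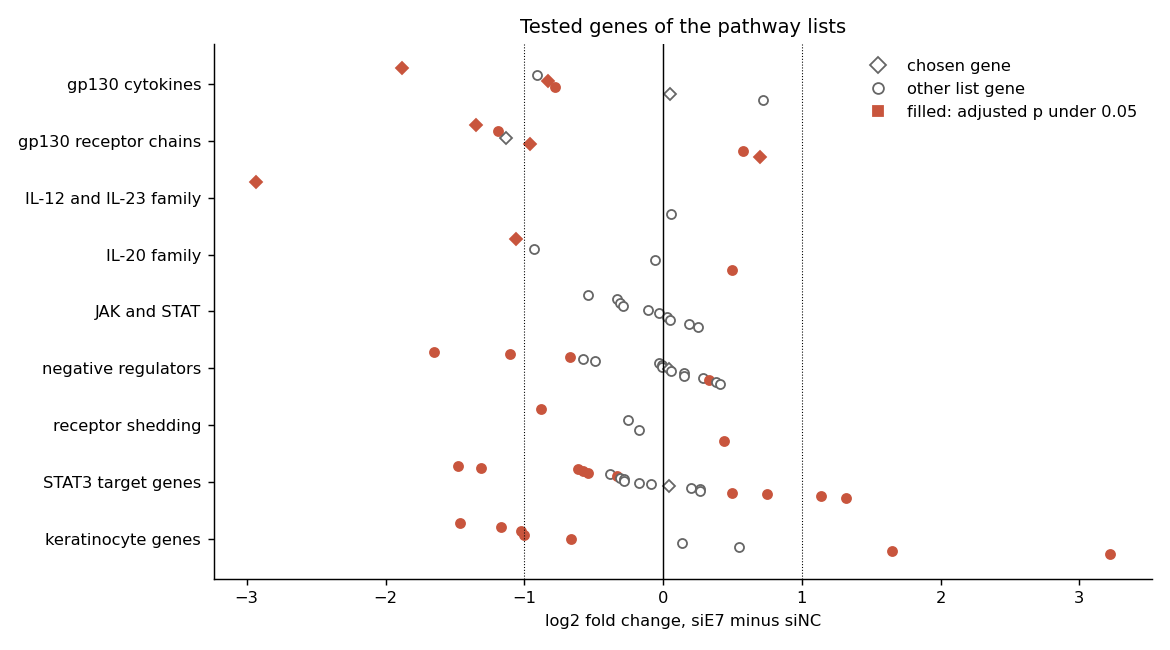
Log2FC, siE7 minus siNC (x axis), of every tested gene in the 9 lists (rows), with diamonds for the 10 chosen genes, filled symbols for an adjusted p under 0.05 and dotted lines at the DEG limit of 1. None of the JAK and STAT genes is filled, while the cytokine and receptor lists spread to both sides.

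For each of the 4 DEGs, the genes with the most similar profile were found by the Euclidean distance between centred log2 CPM values over the 6 libraries, among 12825 genes with a mean of at least 1 CPM. Nearest to IL6ST were CRYBG3, CAMK2N1 and MYL12B (distance 0.164 to 0.199). Those nearest to LIF were CCIN, SEMA4F and NGFR (0.223 to 0.288), and those nearest to IL24 were SLC25A23, ADAMTS6 and CDH2 (0.215 to 0.221). For IL23A they were WNT7A, HMGA2 and SLCO2A1 (0.271 to 0.391). With 2 groups of 3 libraries, a small distance means mainly a similar difference between the groups.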

How the data were processed

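Poly(A) RNA of 6 SCC-9 libraries was sequenced with a directional protocol as paired-end reads. The deposited values are counts of reads per gene made by the authors, without normalization. The submitters' processing notes name HISAT2, DESeq2 and GRCh38. The counting tool, the annotation and the use of strand in counting are not given in the sources used here. Samples were grouped by their titles (NS as siNC, siKi as siE7). No batch is given in the labels.

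Of 25349 genes, 14661 passed filterByExpr of edgeR 4.0.16 (R 4.3.3). Libraries were scaled by TMM factors and compared by the quasi-likelihood F-test with robust dispersions, adjusted by Benjamini-Hochberg over all tested genes. The standard error is the log2 fold change divided by the root of F. The exact two-sided permutation test of 3 against 3 libraries cannot give a p-value under 0.1. DESeq2 1.42.0, other scalings and filters, a replicate block and each library left out were the alternatives. The fits were also run on simulated counts with few changed genes and no library standing apart, a simpler setting than these data. That run does not show how the fits perform on these libraries. Gene positions, overlaps and transcript lengths came from GENCODE release 44 on GRCh38, to which 25283 gene identifiers matched without version. Depth was 25608192 to 29550264 counts per library.

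The 10 genes and the lists were chosen with earlier results of these data known. Named are the 10 genes, MKI67, JAK1, JAK2, TYK2, STAT3, up to 3 DEGs per list by p-value, and the 3 profiles nearest to each DEG. Other list genes were named after their values were seen. IL12B, IL23R, IL22, IL26, IL22RA2, DEFB4A and the leukocyte markers CD3E, PTPRC, LYZ and MS4A1 were not analysed here, and some other items are not reported here. Protein sequences were not used here. Tables and plots used Python 3.11.15, numpy 2.4.6, pandas 2.3.3 and matplotlib 3.10.9.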

Additional observations from a re-analysis of the deposited data

How the results depend on the processing

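Over 13 alternatives, the count of DEGs stayed within 1.5 times that of the report (1365 to 2219), as did the counts of called genes among the 10 (6 to 8) and of DEGs among them (3 to 6). LIF, IL6ST, OSMR, IL11, IL23A, IL24 and LIFR were lower and IL6R was higher in every alternative that gave a value, and LIFR gave none with at least 10 counts in every library. Library totals in place of TMM factors raised the median log2 fold change of all tested genes by 0.168 and the share of DEGs that were higher from 60.4% to 76.2%. The sign of 4 genes that were not called turned. With DESeq2 the log2 fold changes were -0.0072 (IL6), -0.01 (SOCS3), -0.01 (JAK2) and -0.03 (TYK2). With RLE scaling they were -0.0056 (SOCS3), -0.005 (JAK2) and -0.02 (TYK2). With 1 library left out they lay between -0.22 and 0.18 (IL6), -0.15 and 0.10 (SOCS3), -0.13 and 0.19 (JAK2), and -0.17 and 0.10 (TYK2). The cause was not tested. Low counts limit LIFR most, with 8 to 55 counts per library.

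No pairing of libraries by replicate number was visible. The deviations of same-numbered libraries from their group means correlated at -0.039, -0.021 and -0.052 across genes, and those of other pairs at -0.037 to 0.061. With 3 libraries per group, such values cannot exclude a pairing. With the replicate block the number of DEGs was 1819, against 1792 without it, and among the 10 genes 8 were called, LIFR in addition (-1.27), and 5 were DEGs. IL11RA (0.59) and SOCS7 (0.33) lost their calls under it. No siE7 library correlated best with the siNC library of its own number.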
